A study of Mus musculus with 4 samples.

Results

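The Wnt/beta-catenin genes of brain endothelium described here were 10 of the 32285 genes in the deposited single-cell tables, all 10 found by symbol. They were chosen by function, with earlier results of these data known. The receptors, co-receptors and receptor partners were Fzd4, Fzd6, Lrp5, Lrp6, Tspan12 and Adgra2, the transducer was Ctnnb1, and the targets and feedback genes were Lef1, Axin2 and Apcdd1. The animals were male C57BL/6N mice aged 10 months. A group of mice underwent sham surgery and received an isotype control antibody, chosen to have no target in the mouse. The other 3 groups underwent stroke by dMCAO, in which a distal branch of the middle cerebral artery is closed, and received the same isotype control, anti-VCAM1 or anti-VLA4. VCAM1 is displayed by inflamed endothelium and holds passing leukocytes, and VLA4 is its integrin partner on those leukocytes. The labels give 10 weeks of antibody for all 4 groups, so the sham mice carried an antibody too. Sensory cortex, described as infarct core with about 2 mm of cortex around the lesion, was pooled from 4 to 5 mice of a group (the sham group has the same tissue label), dissociated and stained for CD31 (an endothelial surface protein) and CD45 (a leukocyte surface protein). The collected fractions are not named in the labels. Single-cell 3′ libraries were made. Each group was 1 library of pooled mice. No value below therefore has a replicate check, no test across samples was possible, and the intervals, all at 95%, allow for counting error alone.

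In canonical Wnt signalling a secreted Wnt ligand binds a Frizzled receptor together with LRP5 or LRP6, the destruction complex built on axin and APC is held back, and beta-catenin, the product of Ctnnb1, is spared from breakdown, enters the nucleus and works with LEF and TCF factors on target genes. Brain endothelium depends on this pathway to form and keep the blood-brain barrier. WNT7A and WNT7B reach it through Frizzled receptors with the co-receptor complex of ADGRA2 (GPR124) and RECK, and norrin, the product of Ndp, reaches it through FZD4, LRP5 and TSPAN12. AXIN2 and APCDD1 damp the pathway and are themselves switched on by it, as is LEF1.

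Promoter sequence was looked at first, since LEF and TCF factors act through short DNA elements with the core CTTTGA or CTTTGT. RefSeq start windows (GRCm38.p6, 250 bases before and 50 after a start) were read for 5 of the 10 members. There were 4 for Lef1, 2 for Ctnnb1 and 1 each for Tspan12, Fzd4 and Axin2. No window of Apcdd1, Fzd6, Lrp5, Lrp6 or Adgra2 was read. Member windows on 1 chromosome were set aside beforehand, so a member without a window here need not lack one. Neighbouring starts of a gene can share most of a window. Across all 32851 windows of the table, read on both strands, 16.0% held CTTTGA, 18.7% held CTTTGT and 31.2% held either. The 2 letter strings cannot overlap each other on a strand. Of the 9 member windows read, 2 held a match and 7 held none. The window with most matches belonged to a Lef1 start inside the gene and held 3, a count that 1.14% of all windows reached. The Tspan12 window held 1. The 250 upstream bases are printed for these windows, and for the outermost Lef1 start and Axin2, textbook targets whose windows had no match. They run 5′ to 3′ on the strand of the gene: chr3:131156044-131156293 (plus strand) for the internal Lef1 start, chr3:131110047-131110296 (plus strand) for the outermost Lef1 start, chr6:21852534-21852783 (minus strand) for Tspan12 and chr11:108920099-108920348 (plus strand) for Axin2. Capitals mark the matches, which here lie on the other strand and so read TCAAAG or ACAAAG.
Lef1, internal start: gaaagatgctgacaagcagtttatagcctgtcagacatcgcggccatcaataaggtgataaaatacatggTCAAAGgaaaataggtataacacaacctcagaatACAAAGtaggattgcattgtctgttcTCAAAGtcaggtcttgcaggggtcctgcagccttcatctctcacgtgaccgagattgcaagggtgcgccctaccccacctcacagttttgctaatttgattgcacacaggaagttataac
Lef1, outermost start: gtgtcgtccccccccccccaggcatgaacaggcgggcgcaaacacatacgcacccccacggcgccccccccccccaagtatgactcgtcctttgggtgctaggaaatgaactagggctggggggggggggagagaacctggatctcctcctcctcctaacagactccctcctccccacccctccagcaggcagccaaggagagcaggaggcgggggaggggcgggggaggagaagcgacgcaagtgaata
Tspan12: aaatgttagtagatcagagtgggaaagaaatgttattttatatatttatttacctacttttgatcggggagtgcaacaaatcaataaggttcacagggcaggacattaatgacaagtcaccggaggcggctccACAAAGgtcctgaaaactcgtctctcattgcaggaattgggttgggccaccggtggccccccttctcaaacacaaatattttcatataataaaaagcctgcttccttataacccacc
Axin2: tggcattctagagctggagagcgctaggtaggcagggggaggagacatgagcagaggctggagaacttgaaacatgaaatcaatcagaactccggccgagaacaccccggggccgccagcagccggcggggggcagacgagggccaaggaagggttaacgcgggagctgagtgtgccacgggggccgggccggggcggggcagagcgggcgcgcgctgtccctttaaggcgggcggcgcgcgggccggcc
A match is a string of letters and not a measured binding site, and the absence of a match says only that these letters are not in the window. No transcript of the GENCODE M21 annotation begins at the internal Lef1 start. The counts below come from the 3′ ends of transcripts and do not tell one start of a gene from another.

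Values of the 4 libraries are given throughout in the order sham, stroke with isotype, anti-VCAM1, anti-VLA4. They held 10008987 to 34721356 UMIs (counted transcript molecules), and 1516, 2832, 4662 and 6209 cells were kept after filtering. Clusters were named from marker lists, and 7 of 23 clusters were endothelial-like, with 551, 647, 2387 and 3059 cells (6644 in all). All 10 endothelial markers, among them Flt1, Pecam1, Cdh5 and Tek, had UMIs in every library, and their summed level ranged from 22404 to 23060 UMIs per 1000000 UMIs of the class (CPM). Median depth was 3894, 3789, 4052 and 4380 UMIs per endothelial-like cell. The sham and isotype stroke libraries shared 59 barcodes, against 1 to 8 for the other pairs of libraries. After the filter 55 of these remained, of which 46 had the same class in both libraries, at a median of 18156 UMIs in sham and 597 in the stroke library. Only 9 endothelial-like cells of each of these libraries carried a barcode found elsewhere, and leaving out all such cells gave a median log2 ratio of the members of -0.14 for stroke (-0.15 with them).

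The members differed in how far they were restricted to endothelium. Fzd6, Tspan12, Adgra2, Lef1, Axin2 and Apcdd1 were close to absent from microglia-like cells, with 0 to 40 UMIs and at most 3.27 CPM in any of the 4 libraries. Lef1, the LEF factor itself, stood at 1151, 1034, 853 and 907 CPM in endothelial-like cells and at 0.585, 0.858, 3.27 and 2.99 CPM in microglia-like cells. The low microglia-like level of Lef1 was higher in the 2 libraries with most endothelial-like cells (51.2% and 49.3% of kept cells, against 36.3% and 22.8%). Apcdd1 was instead highest there in stroke with isotype, at 1.07 CPM on 10 UMIs from 1 cell. Whether these levels came from free RNA was not tested. Fzd4, the norrin receptor, stood between 3.51 and 6.27 CPM in microglia-like cells and was 17.4-fold to 36.5-fold higher in endothelial-like cells.

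The co-receptors and the transducer were shared with other cells. Lrp5 was at 78.8, 77.1, 82.0 and 79.4 CPM in microglia-like cells, above its endothelial-like level in all 4 libraries. The endothelial-like level was 0.51 to 0.90 of it. In sham the interval of that ratio (0.75 to 1.07) allowed equal levels. Lrp6 was 1.15-fold to 1.37-fold higher in endothelial-like than in microglia-like cells, and it reached 375 CPM (interval 336 to 418, 330 UMIs, 4 libraries summed) in border-macrophage-like cells, against 123 CPM in endothelial-like cells summed the same way. Ctnnb1, which also serves cell junctions, was 5.53-fold to 7.06-fold higher in endothelial-like than in microglia-like cells. T-cell-like cells, where LEF1 and TCF7 are known lymphocyte factors, held Lef1 at 78.9, 128, 100 and 122 CPM and the Wnt feedback gene Axin2 at 8.76, 19.2, 19.4 and 12.8 CPM. Axin2 there rested on 5 to 24 UMIs a library. Fzd4, Fzd6, Tspan12, Adgra2 and Apcdd1 had at most 6 UMIs a library in T-cell-like cells. Lrp5 stood at 43.8, 7.19, 21.1 and 3.5 CPM in these cells, on 25, 9, 12 and 3 UMIs, highest in sham with an interval (28.4 to 64.7) that overlapped only that of anti-VCAM1 (10.9 to 36.9). B-cell-like cells, summed over libraries, held Lef1 at 48.8 CPM (36.2 to 64.3).

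**Figure D1:**
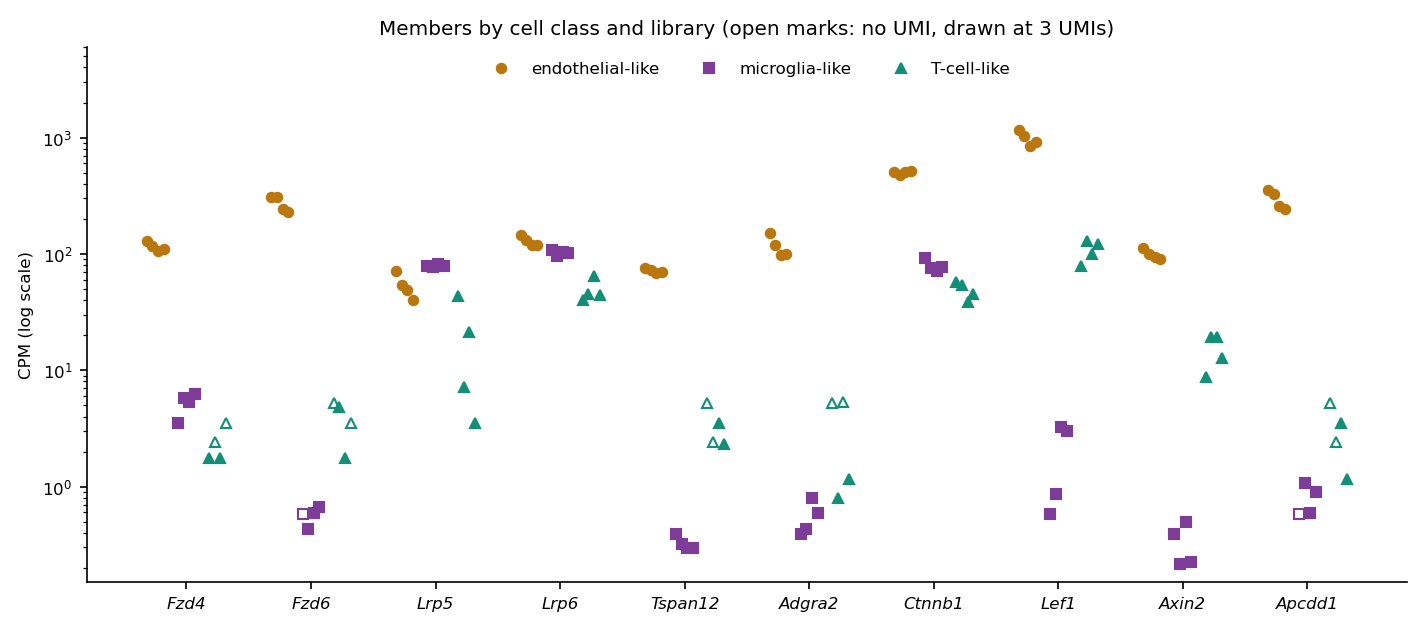
CPM on a log axis (vertical) of each member (horizontal) in endothelial-like, microglia-like and T-cell-like cells, 1 mark per library in the order sham, stroke with isotype, anti-VCAM1, anti-VLA4. Open marks stand for no UMI and are drawn at the level of 3 UMIs. Lrp5 and Lrp6 sit at similar heights in endothelial-like and microglia-like cells, while Lef1, Axin2, Apcdd1, Fzd6, Tspan12 and Adgra2 stay at or below 3.27 CPM in microglia-like cells.

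Pericyte-like cells (169 over the 4 libraries) and astrocyte-like cells (102) also held member transcripts, but both carried endothelial markers. In pericyte-like cells the 10 endothelial markers and Cldn5, the main tight-junction claudin of this barrier, stood at 36.2% to 48.7% of their endothelial-like levels. The 10 members ranged from 47.8% to 101%, with a median of 74.1% against 41.4% for the markers. Lef1 was at 47.8% (interval 43.5 to 52.3), within the range of the markers. Lrp6 was at 101% (84.2 to 120), Axin2 at 97.8% (79.2 to 119), Adgra2 at 94.5% (77.1 to 115) and Fzd6 at 84.6% (73.8 to 96.7), all above the range of the markers. Lrp5 (79.4%), Tspan12 (68.8%), Apcdd1 (63.2%), Fzd4 (61.4%) and Ctnnb1 (61.4%) were above it too, though the interval of Fzd4 (48.0 to 77.4) reached into it. In astrocyte-like cells the median over members was 33.1% of the endothelial-like level and that over the markers was 27.4%. How much of these levels came from endothelial cells in the same droplets was not tested. In the endothelial-like cells, in turn, 8 or 9 of 9 pericyte markers had UMIs. Their summed level was 125, 131, 239 and 250 CPM, most of it Rgs5, so it was higher in the blockade libraries. All 10 microglia markers had UMIs there too, with a summed level of 79.1, 285, 154 and 146 CPM, highest in stroke with isotype. The part of either in the levels of the members was not tested.

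Among the receptors, Fzd6 and Adgra2 had intervals that set both blockade libraries below both isotype libraries. Fzd6 was at 310, 306, 242 and 228 CPM in endothelial-like cells, and the intervals of both blockade libraries (233 to 251 and 221 to 235) lay below those of sham (289 to 333) and of stroke with isotype (286 to 327). Fzd4 was at 128, 116, 107 and 109 CPM, with the sham interval (115 to 143) overlapping only that of stroke with isotype (104 to 130). By CPM scaled to the class total, sham was thus highest for both Frizzled receptors, and the isotype stroke library was near it for Fzd6.

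Lrp5 was at 70.9, 53.8, 48.6 and 40.4 CPM, and its sham level was 1.76 times its level with anti-VLA4, the widest spread over libraries among the members. The anti-VLA4 interval (37.3 to 43.6) lay below the other 3. Lrp6, the other LRP co-receptor, was at 146, 130, 119 and 120 CPM, and only the sham interval (132 to 162) stood clear of the 2 blockade libraries. Tspan12, the tetraspanin that boosts norrin signalling at FZD4, was at 76.0, 72.7, 68.7 and 69.9 CPM with all 4 intervals overlapping. Adgra2, the adhesion receptor that enables WNT7 signalling, was at 151, 119, 97.3 and 99.1 CPM. Its sham interval (136 to 167) was above the others, the isotype stroke interval (107 to 133) came next, and the blockade intervals overlapped.

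Ctnnb1 was the exception in order. It was at 507, 475, 507 and 520 CPM, lowest in stroke with isotype, and its highest level was 1.09 times its lowest. The intervals of stroke with isotype (450 to 501) and anti-VLA4 (509 to 531) did not overlap. Most regulation of beta-catenin is at the level of protein stability, which RNA counts do not show.

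Of the target and feedback genes, Lef1 had intervals that separated all 4 libraries, at 1151, 1034, 853 and 907 CPM. Apcdd1, a membrane inhibitor of Wnt signalling, was at 354, 329, 256 and 245 CPM. Its intervals overlapped between sham (331 to 378) and stroke with isotype (308 to 351) and between the blockade libraries (247 to 266 and 237 to 253), but not between these pairs. Axin2, the widely used readout of the pathway, was at 112, 99.2, 93.8 and 90.5 CPM, and only the intervals of sham (99.4 to 126) and anti-VLA4 (85.8 to 95.2) stood apart. By this CPM all members but Ctnnb1 were thus highest in sham. These orders and interval separations are of CPM scaled to the class total and depend on that scaling. The factors of the TMM scaling used further below were 1.07, 1.04, 0.952 and 0.943. Dividing by them lowers sham against the blockade libraries.

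**Figure D2:**
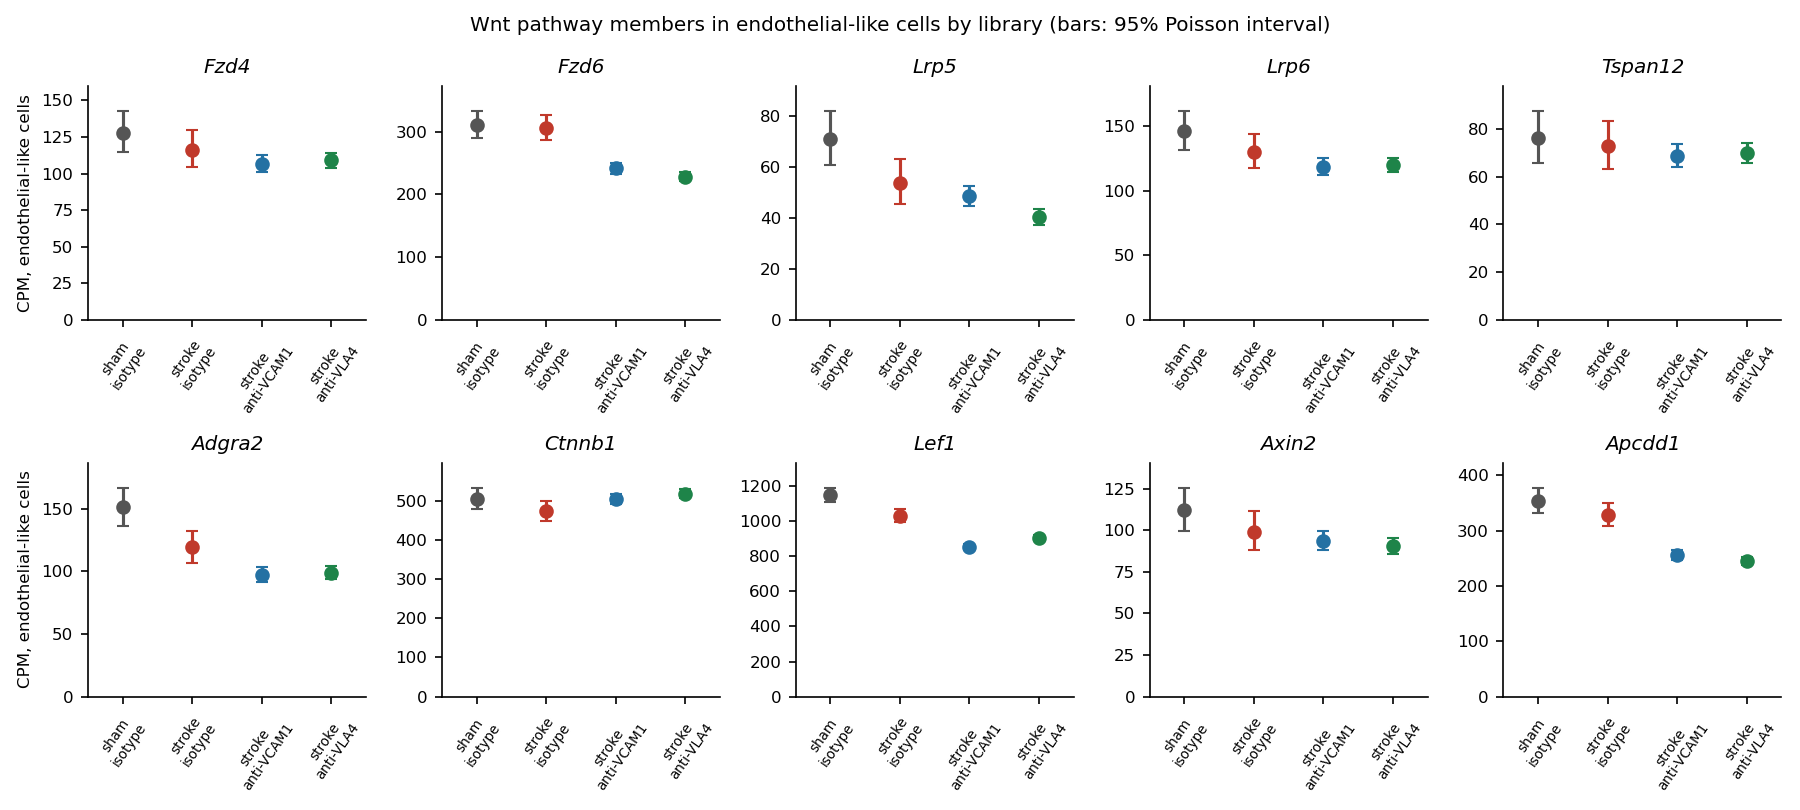
CPM in endothelial-like cells (vertical, each axis from 0) for the 10 members in the 4 libraries; points are UMIs per 1000000 UMIs of the class and bars are 95% Poisson intervals. By this scaling sham is the highest library for 9 members, and Ctnnb1 stays between 475 and 520 CPM.

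Shares of cells with a Lef1 or Apcdd1 UMI kept the order of the libraries once depth was made equal. After each cell was thinned to 1000 UMIs, which left out 16, 36, 78 and 82 shallower endothelial-like cells, a Lef1 UMI was found in 62.6% (58.4 to 66.7), 56.5% (52.4 to 60.4), 53.4% (51.3 to 55.4) and 54.6% (52.8 to 56.4) of cells. Unthinned shares were 89.5%, 86.2%, 87.7% and 88.6%. Apcdd1 was found in 27.7% (23.9 to 31.7), 25.2% (21.8 to 28.8), 22.4% (20.7 to 24.2) and 21.0% (19.6 to 22.5) of thinned cells. Its unthinned shares were 60.6%, 58.6%, 56.1% and 56.7%. For both genes the thinned interval of stroke with isotype overlapped those of the other libraries. In thinned microglia-like cells, which should lack both genes, at most 0.223% of cells in any library had a Lef1 UMI and at most 0.0825% an Apcdd1 UMI (1.30% and 0.407% unthinned), at median depths of 5201 to 7342 UMIs before thinning. Not every member kept its order. In thinned endothelial-like cells Fzd6 was found in 26.9% for sham and 29.6% for stroke with isotype. Fewer cells expressing a gene and less RNA per cell cannot be told apart in these shares.

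For stroke, the isotype stroke library was divided by sham. A gene was called when its log2 ratio of CPM was at least 0.5 from 0, among genes with at least 50 UMIs over the 2 libraries. Of the 10 members 0 were called, against 8.32% of 8884 genes (3.87% higher and 4.45% lower). All 10 log2 ratios were below 0, as were 53.4% of all genes, and the median of the members was -0.15 against -0.02 for all genes. The counting interval lay below 0 for 3: Lrp5 at -0.39 (-0.72 to -0.08), Adgra2 at -0.34 (-0.56 to -0.13) and Lef1 at -0.16 (-0.23 to -0.08). For Fzd6 at -0.02 (-0.16 to 0.12), Tspan12 at -0.06 (-0.35 to 0.23), Apcdd1 at -0.11 (-0.24 to 0.03) and the others it held 0. Naming cells one by one from markers, without clusters, gave a member median of 0.0034 with 5 of 10 below 0 and called Lrp5 (-0.69) and Adgra2 (-0.80) lower. By that naming 11.1% of 6948 genes were called and 54.0% were below 0.

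For VCAM1 blockade, the anti-VCAM1 library was divided by the isotype stroke library. Again 0 of 10 members were called, against 12.6% of 10488 genes (3.53% higher and 9.08% lower). The intervals of Fzd6 at -0.34 (-0.45 to -0.23), Adgra2 at -0.29 (-0.47 to -0.11), Lef1 at -0.28 (-0.34 to -0.22) and Apcdd1 at -0.36 (-0.47 to -0.25) were below 0. Ctnnb1 at 0.09 (0.01 to 0.18) was above 0, and the other 5 intervals held 0. With 9 of 10 members below 0 against 55.8% of all genes, the median of the members was -0.14 and that of all genes was -0.05.

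The anti-VLA4 comparison used the same control library, so the 2 blockade comparisons are not independent. It called 0 of 10 members, against 14.6% of 10830 genes (3.72% higher and 10.9% lower). Intervals below 0 were those of Fzd6 at -0.42 (-0.53 to -0.32), Lrp5 at -0.41 (-0.67 to -0.15), Adgra2 at -0.26 (-0.44 to -0.09), Lef1 at -0.19 (-0.25 to -0.13) and Apcdd1 at -0.42 (-0.53 to -0.32). Ctnnb1 at 0.13 (0.05 to 0.21) was above 0. The median over members was -0.16 and that over all genes was -0.06, with 9 members and 56.8% of all genes below 0. Set against each other, anti-VLA4 over anti-VCAM1, the blockade libraries called 0 of 10 members against 1.33% of 11333 genes. Lef1 was 0.09 (0.05 to 0.12) higher, and Lrp5 at -0.26 (-0.43 to -0.10) and Fzd6 at -0.08 (-0.16 to -0.01) were lower, with anti-VLA4. Of the members 4 were below 0, as were 52.2% of all genes.

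These directions depended on how libraries were scaled. With TMM scaling in edgeR the median of all genes moved from -0.05 to 0.07 (VCAM1 blockade) and from -0.06 to 0.07 (VLA4 blockade), a shift of over 0.1 in each. The share of called genes that were lower moved from 72.0% to 36.7% and from 74.5% to 37.0%, and for stroke from 53.5% to 42.8%. Under that scaling 9, 6 and 5 members were below 0 for stroke, anti-VCAM1 and anti-VLA4, with member medians of -0.10, -0.01 and -0.02. A scaling factor shifts the ratios of all genes nearly alike. The median member therefore stayed below the median gene in all 3 comparisons by construction, which is no separate check. Fzd6, Adgra2 and Apcdd1 were below 0 under all 21 settings in both blockade comparisons. Lef1 was below 0 under 21 settings for anti-VCAM1 and 19 for anti-VLA4.

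**Figure D3:**
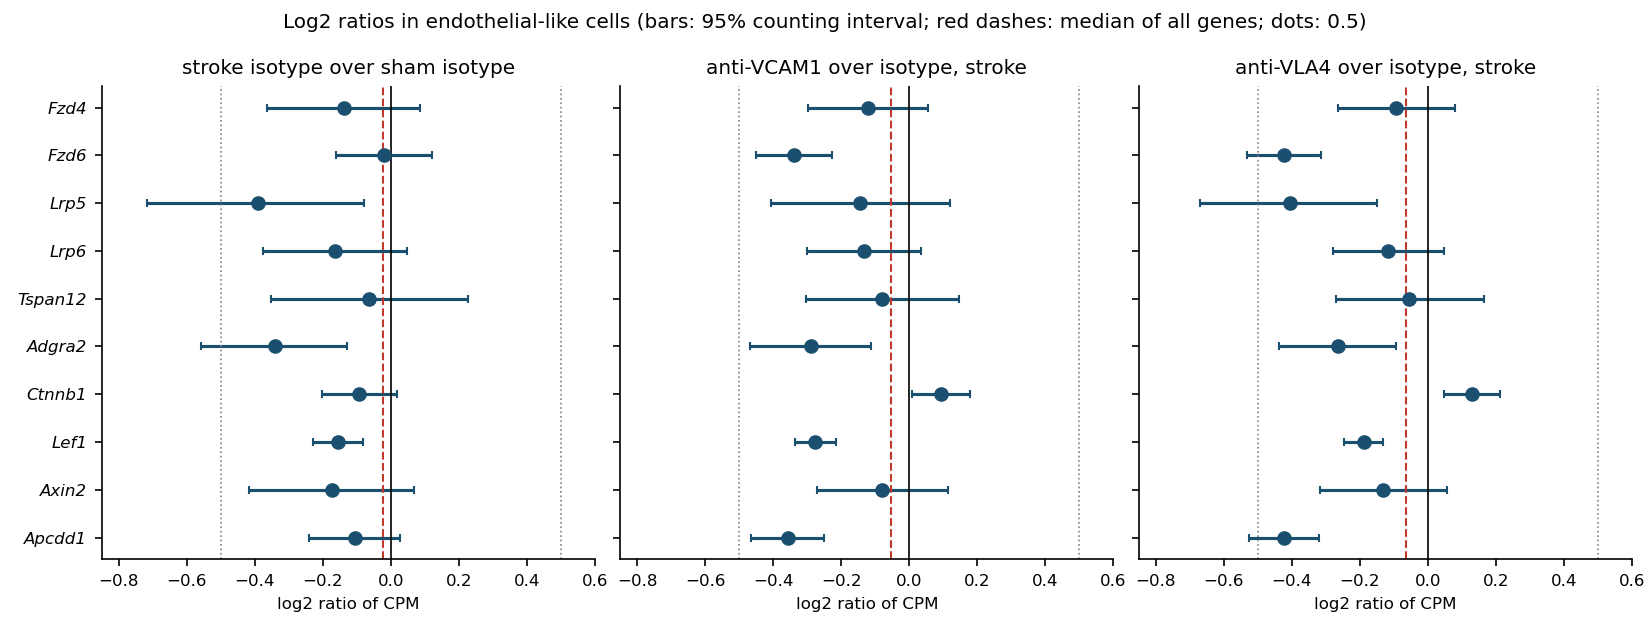
Log2 ratios of CPM (horizontal) of the 10 members in endothelial-like cells for the 3 comparisons; bars are 95% counting intervals, red dashes the median of all genes and dotted lines the threshold of 0.5 on either side. No member's ratio crosses a dotted line, and Ctnnb1 alone lies to the right of 0 in both blockade comparisons.

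The members also differed between the endothelial-like clusters. Within a library the highest cluster was 1.42 to 3.37 times the lowest for Lef1 and 2.20 to 2.76 times for Apcdd1, where the highest library was 1.35 and 1.44 times the lowest. Cluster 8 (876 cells) had all 8 arterial markers raised, 7 of them well detected, among them Bmx, Gkn3 and Efnb2. Cluster 7 (949 cells) had 4 (Bmx, Gkn3, Sema3g and Hey1), and cluster 13 (213 cells) had all 7 venous markers raised, 5 of them well detected, among them Nr2f2, Vwf and Slc38a5. Clusters 0, 3 and 6 (1807, 1468 and 1213 cells) had fewer than 3 raised markers of any segment and stay numbered, and cluster 17 (118 cells) was led by interferon genes such as Ifit1 and Isg15. Cluster 3 was marked by low Malat1, a nuclear RNA, at 4305 CPM against 30421 CPM in cluster 6, and by a lower depth of 3086 UMIs in the median cell against 4359. The members took no part in the choice of cluster names. They were also left out of the genes used for clustering, but genes that vary with them were not, so the cluster levels below are a description.

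Among clusters with at least 50 cells in a library Lef1 was lowest in cluster 3, at 425 to 589 CPM over 3 libraries, followed by the arterial-marker cluster 7 at 607 to 628, and highest in cluster 6, at 1297 to 1434 CPM over 4 libraries. The arterial-marker cluster 8 lay between, at 888 to 1082. Fzd6 had the same ends, at 131 to 145 CPM in cluster 3 and 312 to 417 CPM in cluster 6. Adgra2 was at 59.2 to 67.6 CPM in cluster 3 and highest in cluster 6 (126 to 185). Its lowest single value was in cluster 17, in the only library with 50 cells there (anti-VLA4). It was 40.4 CPM (19.4 to 74.3) on 10 UMIs, an interval that held the range of cluster 3. Summed over all libraries, Adgra2 stood at 82.9 CPM (60.2 to 111) in cluster 17 and 62.2 CPM (55.4 to 69.6) in cluster 3. The library ranges given for clusters 3 and 6 did not overlap for Lef1, Fzd6 or Adgra2.

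Apcdd1 was low in the clusters with arterial markers and also in clusters 3 and 17. It was at 156 to 222 CPM in cluster 8 and 157 to 168 CPM in cluster 7, both with arterial markers. The 192 to 210 CPM of cluster 3 and the 206 CPM of cluster 17 (1 library) lay inside the range of cluster 8. These levels stood against 324 to 350 CPM in cluster 13 with venous markers and 387 to 464 CPM in cluster 6. With libraries summed Apcdd1 stood at 172 CPM in cluster 8 and 368 CPM in cluster 13, where Lef1 stood at 913 and 1113 CPM. Fzd4 was highest in cluster 13 in the 2 libraries with 50 cells there (anti-VCAM1 and anti-VLA4), at 145 to 164 CPM. It ranged from 88.1 to 138 CPM in cluster 8. Summed over all libraries, Fzd4 had overlapping intervals in cluster 13, at 141 CPM (121 to 164), and in cluster 6, at 132 CPM (123 to 141). Tspan12 ranged only from 56.4 to 89.8 CPM over the cluster sums of at least 50 cells. Ctnnb1 differed between libraries in cluster 3. In stroke with isotype cluster 3 was the lowest of 5 clusters for both Ctnnb1 (360 CPM) and Lef1 (425 CPM), and cluster 7 was the highest for Ctnnb1 (546). In both blockade libraries cluster 3 was the highest for Ctnnb1 (549 and 584 CPM) while it was the lowest for Lef1. The lowest Ctnnb1 there was in cluster 13 with anti-VCAM1 (378 CPM) and in cluster 8 with anti-VLA4 (467 CPM).

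**Figure D4:**
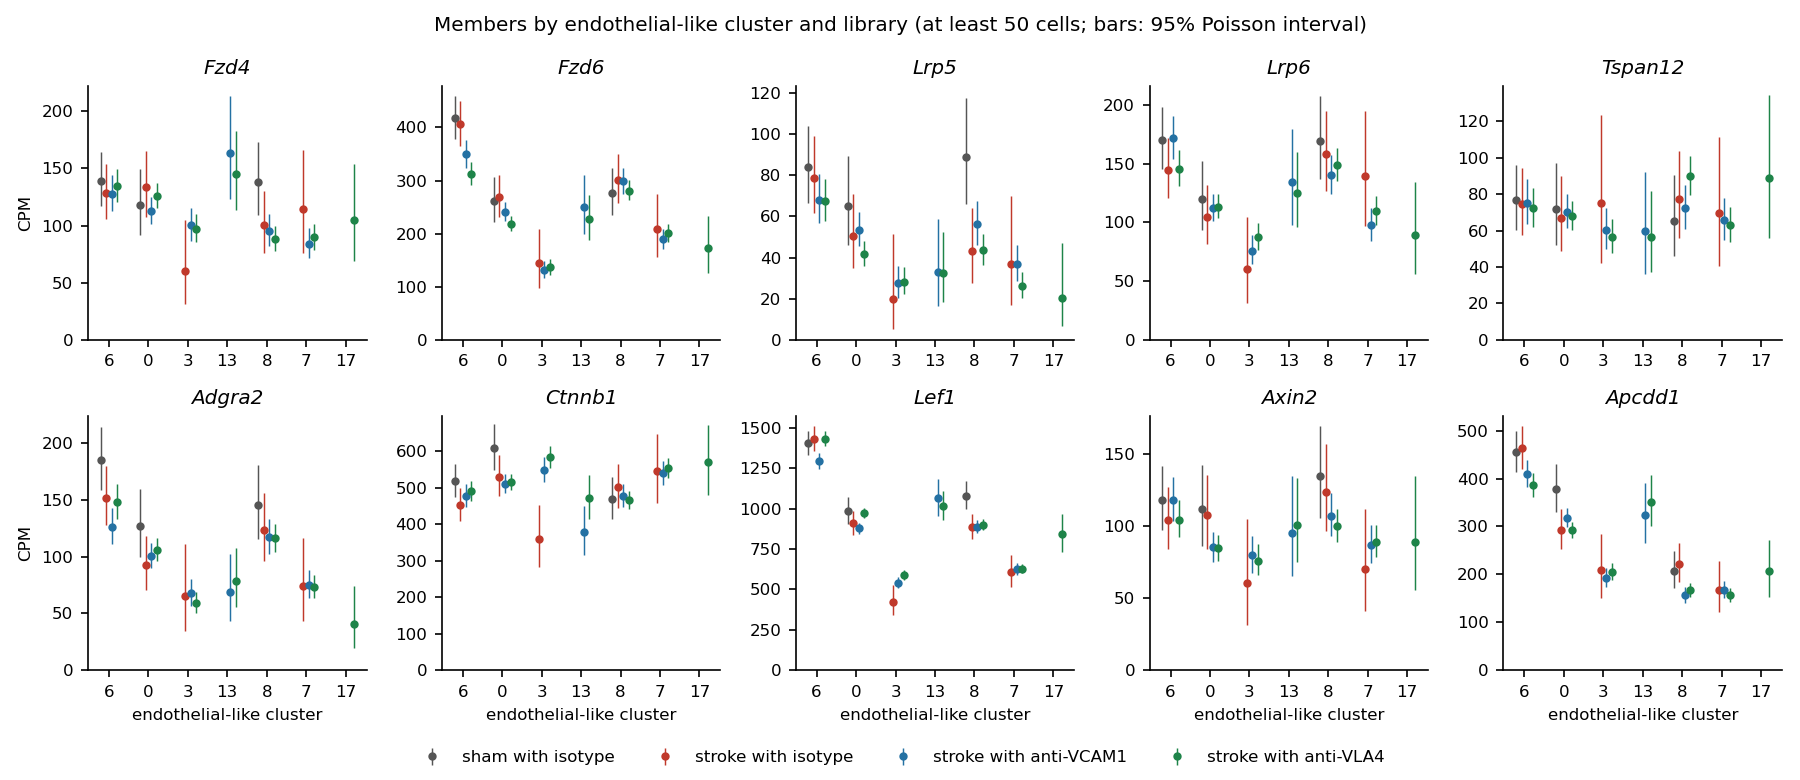
CPM (vertical, from 0) of each member by endothelial-like cluster (horizontal) and library (colour), for clusters with at least 50 cells in the library; bars are 95% Poisson intervals. Lef1, Fzd6 and Adgra2 are low in cluster 3 and high in cluster 6, Apcdd1 is low in clusters 3, 7 and 8, and Tspan12 stays between 56.4 and 89.8 CPM.

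The share of these clusters differed between libraries. Cluster 6, high in Lef1 and Apcdd1, made up 37.4%, 30.8%, 15.7% and 14.2% of endothelial-like cells. Cluster 3, low in both, made up 7.44%, 11.3%, 24.8% and 24.9%. Cluster 7 made up 4.54%, 8.04%, 15.3% and 16.5%, and cluster 13 made up 7.62%, 6.49%, 2.35% and 2.39%. The order of the libraries in Fzd6 and Apcdd1 was thus also the order of cluster 6, and Lef1 too was higher in the 2 isotype libraries. With every library given the same cluster shares, the member medians were -0.06 for stroke, -0.01 for anti-VCAM1 and -0.03 for anti-VLA4, and 9, 6 and 6 members were below 0. The medians of all genes then moved to 0.03, 0.02 and 0.01, and 45.4%, 47.2% and 48.0% of all genes were below 0.

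Single members behaved differently under equal shares. Lef1 was at -0.06 for stroke, at -0.02 for VCAM1 blockade and on the other side of 0, at 0.09, for VLA4 blockade. Apcdd1 went to -0.01, -0.10 and -0.15, and Adgra2 to -0.13, -0.08 and -0.03. Fzd6 kept more of its difference in the blockade comparisons, at -0.14 and -0.22 (0.04 for stroke), and Lrp5 kept -0.25 for stroke and -0.14 for anti-VLA4 with 0.06 for anti-VCAM1. Ctnnb1 stayed at -0.08, 0.12 and 0.16.

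Within clusters, Fzd6 in cluster 6 stood at 417, 406, 350 and 312 CPM. The log2 ratio there was -0.22 (-0.40 to -0.03) under VCAM1 blockade and -0.38 (-0.56 to -0.20) under VLA4 blockade. In cluster 0 Fzd6 gave -0.15 (-0.39 to 0.09) and -0.30 (-0.53 to -0.06), and in clusters 3, 7 and 8 its intervals held 0 in both comparisons, at -0.15 to -0.01. Apcdd1 in cluster 6 stood at 455, 464, 410 and 387 CPM, with -0.18 (-0.35 to -0.01) and -0.26 (-0.43 to -0.10), and in the arterial-marker cluster 8 it gave -0.51 (-0.82 to -0.20) and -0.41 (-0.70 to -0.12). In clusters 0, 3 and 7 the intervals of Apcdd1 held 0 in both comparisons, with ratios from -0.13 to 0.12. Those of Adgra2 held 0 in clusters 0, 3, 6, 7 and 8 in both comparisons, with ratios from -0.27 to 0.20. Lef1 in cluster 6 stood at 1406, 1434, 1297 and 1433 CPM, so only the anti-VCAM1 library lay lower there, at -0.14 (-0.24 to -0.05). In cluster 3 both blockade libraries were higher than stroke with isotype, where 73 cells gave 85 Lef1 and 72 Ctnnb1 UMIs. Lef1 was at 0.35 (0.03 to 0.68) and 0.47 (0.16 to 0.80) there and Ctnnb1 at 0.61 (0.26 to 0.98) and 0.70 (0.36 to 1.06). For stroke over sham, Apcdd1 in cluster 0 gave -0.37 (-0.66 to -0.09) and 0.03 (-0.17 to 0.22) in cluster 6. Lef1 gave -0.29 (-0.46 to -0.11) in cluster 8, -0.12 (-0.28 to 0.05) in cluster 0 and 0.03 (-0.08 to 0.14) in cluster 6. Ctnnb1 gave -0.20 (-0.39 to -0.01) in cluster 6, -0.20 (-0.42 to 0.02) in cluster 0 and 0.10 (-0.15 to 0.35) in cluster 8. Lrp5 in cluster 8 gave -1.03 (-1.82 to -0.32) on 24 against 49 UMIs, and its intervals held 0 in cluster 0, at -0.36 (-1.08 to 0.34), and in cluster 6, at -0.09 (-0.57 to 0.38).

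**Figure D5:**
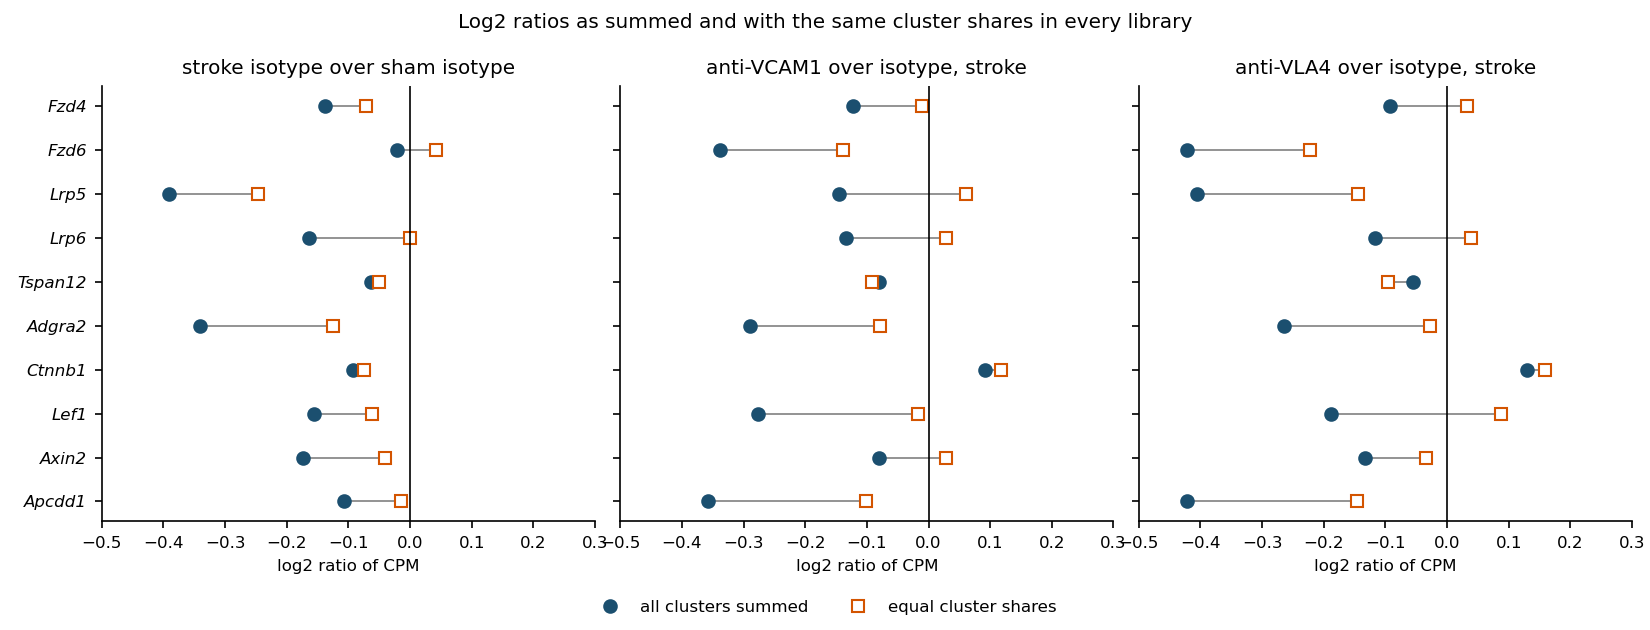
Log2 ratios of CPM (horizontal) for the 10 members, as summed over all endothelial-like cells (filled circles) and with the same cluster shares in every library (open squares), joined by a line. Most squares lie nearer to 0 than their circles; Lef1 moves from -0.19 to 0.09 for anti-VLA4, and Ctnnb1 hardly moves.

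The clusters also gave the genes most like each target gene, by the Pearson correlation of log2 CPM over 21 sums of a cluster in a library. The sums share libraries, depth and cells of like type, so the values are descriptions. Apcdd1 was most like Tfrc (r = 0.97), the transferrin receptor, followed by Adgrl3 (0.94) and Sema6a (0.93). Lef1 was most like Col4a3bp (0.98), Tcf12 (0.97) and Fry (0.97), and had r = 0.82 with Malat1. Axin2 was most like Socs7, Mertk and Itpr1 (all 0.93), and Adgra2 was most like Rapgef4 (0.95), Nf1 (0.95) and Ube3c (0.93). Among the members, Lef1 had its highest value with Fzd6 (0.88) and Adgra2 with Lrp5 (0.93), and Ctnnb1 had values near 0 with Lef1 (-0.09) and Axin2 (0.07).

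The rest of the pathway was read from lists of 100 other genes. The shares to set beside their counts are those of all genes for stroke, anti-VCAM1 and anti-VLA4. Of all genes 8.32%, 12.6% and 14.6% were called, and 53.4%, 55.8% and 56.8% were below 0. Of 24 ligands and R-spondins, 2 could be measured in endothelial-like cells at 50 UMIs, Wnt5a and Wnt5b. The barrier ligands were near absent there: Wnt7b had 0 UMIs, which allows up to 0.091 CPM at 3 counts over the 4 libraries, Wnt7a had 1 and Ndp had 3. In the 102 astrocyte-like cells Wnt7b had 12 UMIs, or 28.0 CPM (14.4 to 48.8), with 3 UMIs of Wnt7a and 4 of Ndp. Wnt5a, a ligand of mainly non-canonical signalling, stood at 24.3, 23.4, 13.9 and 15.3 CPM in endothelial-like cells. It was called lower with anti-VCAM1, at -0.71 (-1.17 to -0.32), and with anti-VLA4, at -0.59 (-1.01 to -0.20). Wnt5a was among the 10 leading genes of the venous-marker cluster 13, whose share was 6.49% in stroke with isotype and 2.35% and 2.39% in the blockade libraries. The part of that share in these calls was not tested.

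Of 15 other receptors 3, 5 and 6 were measurable in the stroke, anti-VCAM1 and anti-VLA4 comparisons, and 1 was called, Fzd1, higher for anti-VLA4 on 47 against 5 UMIs at 0.52 (-0.57 to 2.44). Reck, the partner of ADGRA2, was at 154, 136, 122 and 130 CPM, also highest in sham, with log2 ratios of -0.19 (-0.39 to 0.02) for stroke and -0.16 (-0.32 to 0.01) for anti-VCAM1. Of the destruction complex and Dishevelled genes, 11 or all 12 were measurable. Below 0 were 9 in each comparison, and the calls were both of Amer1, which binds APC, lower for stroke at -0.74 (-1.68 to 0.02) and higher for anti-VCAM1 at 0.60 (-0.01 to 1.40), on 21 UMIs in the isotype stroke library. Csnk1e, a casein kinase of the pathway, was at 92.4, 82.1, 111 and 114 CPM, or 0.43 (0.23 to 0.64) and 0.47 (0.28 to 0.67) in the blockade comparisons. Its relative Csnk1d went the other way at -0.47 (-0.71 to -0.24) and -0.46 (-0.69 to -0.23). Neither Csnk1e nor Csnk1d reached the threshold.

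Of the 12 nuclear factors 11 were measurable. Calls were 1 higher for stroke, 0 for anti-VCAM1 and 2 lower for anti-VLA4. Tcf7l1, a mostly repressive TCF factor, was called lower for anti-VLA4 at -0.58 (-0.90 to -0.29). Tle2, a co-repressor, was called higher for stroke at 0.56 (-0.11 to 1.35) and lower for anti-VLA4 at -0.51 (-1.02 to -0.05), on 46 UMIs in the isotype stroke library. Tcf7l1 stood at 54.4, 40.5, 31.1 and 26.7 CPM, the same order as Lrp5. Tcf7l2 gave -0.42 (-0.73 to -0.12) for stroke. Tle5, of the same co-repressor family as Tle2, was at 290, 304, 402 and 413 CPM, a log2 ratio of 0.40 (0.30 to 0.51) for anti-VCAM1.

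Feedback genes outside the 10 members differed among themselves. Of 18 inhibitors and feedback genes 6, 6 and 7 were measurable, and each comparison called 1, lower. Notum, a secreted enzyme that strips Wnt ligands of their lipid, was at 64.6, 42.6, 58.1 and 59.3 CPM. It was called lower for stroke at -0.59 (-0.95 to -0.25) and gave 0.44 (0.17 to 0.74) and 0.47 (0.20 to 0.76) in the blockade comparisons. Znrf3, a ligase that removes Frizzled receptors from the surface, was at 107, 96.4, 67.5 and 61.5 CPM, an order like that of Fzd6. It was called lower for anti-VCAM1 at -0.51 (-0.72 to -0.31) and for anti-VLA4 at -0.64 (-0.84 to -0.45).

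Barrier genes linked to endothelial Wnt signalling had no call among 12 measurable genes in any comparison, where 8.32%, 12.6% and 14.6% of all genes were called. In stroke 10 of 12 were below 0, with a median of -0.14 against -0.02 for all genes. In the blockade comparisons 7 of 12 were above 0, with medians of 0.09 and 0.10. The medians of the members and of all genes (-0.05 and -0.06) were below 0 in both. With TMM scaling the median of all genes was above 0, at 0.07 in each. Cldn5 was at 3228, 2934, 3540 and 3451 CPM, or 0.27 (0.24 to 0.30) for anti-VCAM1, and Foxq1, a forkhead factor of brain endothelium, was at 460, 374, 466 and 423 CPM, or 0.32 (0.22 to 0.41). Tnfrsf19, a Wnt-induced receptor, was highest in sham at 187, 156, 130 and 121 CPM. The efflux pump Abcb1a had the same order of libraries, at 1800.2, 1639, 1394 and 1358 CPM. Of the 6 general Wnt targets 2 or 3 were measurable. Sp5 was called higher for anti-VCAM1 at 1.00 (0.15 to 2.64) on 68 against 7 UMIs. Plvap, a gene of leaky vessels that Wnt signalling holds down, had 16 UMIs in all 4 libraries, 14 of them in stroke with isotype. Of the 16 dissociation-stress genes 15 were below 0 for stroke, with a median of -0.39, against 53.4% of all genes. Of the 16, 6 were called lower for stroke, against 4.45% of all genes. In each blockade comparison 11 were above 0 and 5 below, with a median of 0.19. For anti-VCAM1 1 was called higher and 3 lower, against 3.53% and 9.08% of all genes. For anti-VLA4 3 were called higher and 2 lower, against 3.72% and 10.9%. Fosb was called lower in both, at -1.29 (-1.79 to -0.94) and -1.02 (-1.46 to -0.68). Hspa1a was called higher for anti-VLA4, at 0.79 (0.66 to 0.94). The part of dissociation stress in the levels of the members was not tested.

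In microglia-like cells the same contrasts could be read for 4 members, Fzd4, Lrp5, Lrp6 and Ctnnb1. For stroke 1 of 4 was called, Fzd4, higher at 0.59 (-0.07 to 1.58) on 54 against 18 UMIs, where 5.84% of 10686 genes were called and 3.02% were called higher. Lrp6 at -0.17 (-0.33 to -0.02) and Ctnnb1 at -0.28 (-0.45 to -0.11) had intervals below 0, and Lrp5 gave -0.03 (-0.21 to 0.15). No member was called for anti-VCAM1 or anti-VLA4, against 3.77% of 11188 and 5.15% of 11402 genes, and all 4 intervals held 0 in both. Whether the members' ratios differ between endothelial-like and microglia-like cells was not tested.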

How the data were processed

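Each library was 1 deposited table of UMI counts per gene and cell barcode, deposited by the authors, and its header gives Cell Ranger 7.0.1 as the software. The submitters' processing notes name Cell Ranger 6.0.0, Seurat 4.3.0.1, mm10 and GRCh38 without roles. Barcodes with at least 500 UMIs, 200 genes and at most 10% mitochondrial UMIs were kept, and Scrublet calls (expected rate 0.05, scanpy 1.11.5, Python 3.11.15; 0.590% to 1.96% of cells a library) were removed. Cells were clustered on 2000 variable genes, 30 components and 15 neighbours at resolution 1, leaving out 249 genes, among them the members and all lists; 21 of 23 clusters were named. A marker counted as raised at a log2 fold of 1 and as well detected in at least 25% of cells. UMIs were summed per class and library. CPM intervals are exact Poisson, shares exact Clopper-Pearson, and log2 ratios (1 CPM added) conditional binomial. In simulated Poisson counts the log2-ratio intervals covered the true ratio of 95.5% to 95.9% of the unchanged genes. Those counts were drawn by the model of the interval. The simulation therefore says nothing about spread between cells, mice or libraries. With 1 library a group no p-value was computed. Members and lists were chosen with earlier results of these data known. Named genes were the members, up to 2 genes a list and comparison with the largest ratio at 200 UMIs, and the 3 most like genes. Fzd1, Amer1, Sp5, Tle2 for stroke, the barrier ligands, Plvap and the clusters described were picked out after their values were seen. TMM used edgeR 4.0.16 in R 4.3.3. Spans for 99.6% of genes came from GENCODE M21.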

Additional observations from a re-analysis of the deposited data

How the results depend on the processing

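No paired analysis was possible because each group has 1 library. The 10 members' median log2 ratio was recomputed under 23 settings and ranged from -0.18 to 0.0034 for stroke, from -0.24 to -0.014 for anti-VCAM1, from -0.27 to -0.021 for anti-VLA4 and from -0.057 to 0.034 for anti-VLA4 over anti-VCAM1. Thinning cells to 1000 UMIs gave -0.24, -0.27 and -0.057 for the last 3. TMM gave -0.014 and -0.021 for the blockade comparisons and median-of-ratios scaling gave -0.054 and -0.063. A mean over cells gave -0.24 for anti-VCAM1 and -0.032 for the direct comparison. Cells named singly from markers gave 0.0034, -0.21, -0.23 and -0.020, and equal cluster shares gave -0.056, -0.014 and -0.031 for the first 3. Leaving out cluster 0 gave -0.21 and -0.23 for the blockade comparisons, and leaving out cluster 8 gave -0.029 for the direct one. Removing the trend with gene span gave -0.058 for anti-VCAM1, and removing the 5 cells with most UMIs of a gene gave -0.10 for anti-VLA4. Apart from the settings' own construction, the cause was not tested. Members were called lower, and none higher, under thinning (1, 2 and 3 members, where 14.5%, 23.3% and 26.1% of all genes were called), single-cell naming (2 for stroke, 11.1% of all genes), the mean over cells (2 for anti-VLA4, 20.3%), and leaving out cluster 0 (1 in each blockade comparison, 19.1% and 21.1%), cluster 6 (1 for stroke, 10.1%) or cluster 8 (1 for anti-VLA4, 18.9%). Leaving out barcodes found in several libraries, and counting the cluster with pericyte and endothelial markers as endothelial-like, were chosen after seeing the data. They left all 10 members uncalled in every comparison. Depth limited Lrp5, Axin2 and Tspan12 most, with 154 to 286 UMIs each in the isotype libraries.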
